A study of Homo sapiens with 4 samples.

Results

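The genes described here were 10 semaphorins and plexins, of 58735 genes measured: the ligands SEMA3A, SEMA3B, SEMA3C, SEMA3F, SEMA4B and SEMA4C and the receptors PLXNA1, PLXNB1, PLXNB2 and PLXND1. They were matched by gene symbol and by Ensembl identifier. The set was drawn up with results of these data known, and SEMA3F was chosen by its levels in the PBS library against the libraries of cells given migrasomes (Migs). That contrast is therefore given as a description, with no test. All 10 genes passed the filter of at least 10 reads in at least 1 library, SEMA3A only through the Mig libraries.

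The labels give the RNA as from MHCC-97H, an established human hepatocellular carcinoma (HCC) cell line, with wild-type genotype in all 4 libraries. Cells were given PBS, or 2 µg of Migs, the vesicles that migrating cells leave behind on their retraction fibres, for 24 h. The Migs came from MHCC-97H cells kept in normoxia (normo-Migs), from MHCC-97H cells kept in hypoxia (hypo-Migs), or from MHCC-97H cells with CD147 knocked out and kept in hypoxia (CD147KO-Migs). Only the cells that made the last Migs lacked CD147. There was 1 library per condition, so no difference below has a replicate check, and the 3 comparisons with PBS share the same PBS library.

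Semaphorins are secreted or membrane-bound guidance proteins, first known for steering growing axons, that bind plexins on the receiving cell. Most secreted class 3 semaphorins need a neuropilin beside the plexin, and furin-like proteases cut them into more or less active forms. Class 4 semaphorins span the membrane and signal mainly through B plexins and, for some, PLXND1. Plexins act on small GTPases of the Ras and Rap families and so on adhesion and cell shape. In tumours and vessels, SEMA3F and SEMA3B are known mostly as brakes on migration and vessel growth, and SEMA3C mostly as a promoter of invasion.

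Each library had 33882496 to 40285223 reads on genes, and 19895 genes were tested. The library labelled PBS stood apart. It correlated with the Mig libraries at a Pearson r of 0.894 to 0.896 over the log2 levels of the tested genes, against 0.984 to 0.985 among the Mig libraries (across genes, which are not independent). In that library 251 genes had at most 3 reads and at least 100 in each Mig library, and mitochondrial genes took 2.69% of its reads against 5.00% to 5.16%. Of 13 hepatocyte markers, ALB, APOB, TTR and AFP had 0 reads in all 4 libraries. The list summed to 0.815 FPKM (fragments scaled by gene length and library size) with PBS and 10.1 to 13.1 with Migs. FGA (0 reads with PBS, 395 to 493 with Migs) and FGB (0 and 561 to 832) carried most of the sum with Migs. SERPINA1 had 25 reads with PBS and 2 to 10 with Migs. The 8 fibroblast or stellate markers summed to 3.15 FPKM with PBS and 19.0 to 20.3 with Migs, with 1 or 2 of them at 0 in each library, PDGFRA in 3 of the 4, and rested mainly on COL1A1 and PDGFRB, while ACTA2 had 71 reads with PBS and 68 to 95 with Migs. The 6 neural markers went from 0.592 to between 4.56 and 5.16 FPKM, with ELAVL4 and STMN2 at 0 in all 4 libraries, and the 6 immune markers from 0.300 to between 1.22 and 1.99, with CD3E at 0 in every library. The 8 endothelial markers summed to between 0.578 and 0.913 in all libraries, and KDR had at most 2 reads. Within that list PECAM1 had 16 reads with PBS and 118 to 146 with Migs, while CDH5 had 84 with PBS and 30 to 72 with Migs. The labelled cell type was not borne out by ALB, APOB, TTR and AFP, which were singled out after their values were seen. The hepatocyte list as a whole was mixed and does not settle the cell type. HNF4A, on the same hepatocyte list, did have reads in every library, 134 with PBS and 141 to 246 with Migs. Which cells each library holds bears on every comparison with PBS. The part of these differences in the results below was not tested, and in bulk RNA fewer cells of a type and less RNA per cell cannot be told apart.

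SEMA3F and SEMA3B lie close together on chromosome 3 (3p21.31), SEMA3F (ENSG00000001617) at chr3:50155045-50189075 and SEMA3B (ENSG00000012171) at chr3:50267558-50277546, both on the plus strand in GENCODE 29 (hg38). Of the other ligands, SEMA3A (ENSG00000075213) at chr7:83955777-84492724, SEMA3C (ENSG00000075223) at chr7:80742538-80922359 and SEMA4C (ENSG00000168758) at chr2:96859716-96870757 are on the minus strand, and SEMA4B (ENSG00000185033) at chr15:90160604-90229679 is on the plus strand. Among the plexins, PLXNA1 (ENSG00000114554) at chr3:126988594-127037392 is on the plus strand, and PLXNB1 (ENSG00000164050) at chr3:48403854-48430051, PLXNB2 (ENSG00000196576) at chr22:50274979-50307627 and PLXND1 (ENSG00000004399) at chr3:129555175-129606818 are on the minus strand. Of the 10 genes, 9 had promoters in the RefSeq table (GRCh38.p14; 250 bases before to 50 after a start), and SEMA3A had none. The promoters of 3 genes are shown, because they belong to the ligand with the largest measured fold, its family neighbour with the opposite direction and the plexin with the largest difference. Some genes had several RefSeq starts, 19 promoters in all, and each shown or counted here, unless stated, is the start nearest to the GENCODE gene start, 1 per gene, read 5′ to 3′ on the gene's own strand, with GGGCGG on either strand in capitals.
SEMA3F, chr3:50154808-50155107, plus strand: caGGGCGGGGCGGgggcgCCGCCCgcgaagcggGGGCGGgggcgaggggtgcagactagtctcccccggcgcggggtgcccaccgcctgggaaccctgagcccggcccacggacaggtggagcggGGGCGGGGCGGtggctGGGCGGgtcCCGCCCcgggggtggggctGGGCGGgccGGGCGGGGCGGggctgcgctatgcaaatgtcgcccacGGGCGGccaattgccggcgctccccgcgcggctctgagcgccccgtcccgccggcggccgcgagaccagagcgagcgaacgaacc
SEMA3B, chr3:50267402-50267701, plus strand: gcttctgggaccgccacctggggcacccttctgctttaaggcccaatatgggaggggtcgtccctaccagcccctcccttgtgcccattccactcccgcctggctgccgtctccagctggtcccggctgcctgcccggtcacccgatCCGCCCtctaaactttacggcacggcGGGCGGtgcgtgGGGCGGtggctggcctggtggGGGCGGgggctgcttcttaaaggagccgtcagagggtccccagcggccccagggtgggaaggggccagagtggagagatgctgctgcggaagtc
PLXND1, chr3:129606627-129606926, minus strand: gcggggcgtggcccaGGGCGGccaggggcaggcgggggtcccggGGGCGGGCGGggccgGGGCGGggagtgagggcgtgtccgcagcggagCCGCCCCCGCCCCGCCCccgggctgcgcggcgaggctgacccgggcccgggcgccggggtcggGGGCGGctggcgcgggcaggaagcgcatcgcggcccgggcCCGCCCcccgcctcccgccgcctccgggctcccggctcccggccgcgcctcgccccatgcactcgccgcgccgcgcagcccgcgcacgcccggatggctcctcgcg
The GC-box letters GGGCGG, which overlap where runs of capitals join, occurred 12 times in the SEMA3F promoter, 4 times in that of SEMA3B and 9 times in that of PLXND1. They were found in 8 of the 9 genes' promoters, all but that of SEMA3C, and in 14 of all 19, including the other SEMA3C promoter, against 45.0% of all 35116 RefSeq promoters of any start. The SEMA3F and PLXND1 promoters had 81.3% and 87.3% G and C and held 44 and 52 CpG, against 18 CpG for SEMA3B and a median of 14 over all promoters. The hypoxia-response core ACGTG, searched on both strands, was in none of the 9 promoters and in 21.4% of all, but in 4 of the 5 promoters of SEMA3B, those farther from its GENCODE start, and GCGTG in 3 of the 9 and in 36.5% of all. The SEMA3B promoters with starts at 50273119 and 50273149 overlap and hold the same ACGTG site. The general E-box CANNTG was in 5 of the 9 and in 68.7% of all, including 3 matches in the SEMA3F promoter, and its form CACGTG, which also holds ACGTG, in none of the 9 and in 7.26% of all. CAGCTG, another form of CANNTG, was in 2 of the 9 and in 17.9% of all, and TATAAA in none of the 9 and in 11.5%. These matches describe letters within these windows only. For PLXNA1, PLXNB2 and SEMA4B the nearest RefSeq start lay 5479, 5958 and 24316 bases from the GENCODE start.

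SEMA3F, a secreted class 3 ligand that binds NRP2, had 663 reads in the library of cells given PBS, 2948 after normo-Migs, 3157 after hypo-Migs and 2432 after CD147KO-Migs. Scaled to 1000000 reads on genes (CPM), these were 19.6 (95% Wilson interval 18.1 to 21.1), 85.3 (82.3 to 88.4), 78.4 (75.7 to 81.1) and 69.4 (66.7 to 72.2). The PBS library was far below the 3 Mig libraries, whose intervals did not overlap each other either. All intervals here cover counting error only. After TMM scaling, SEMA3F was 4.50-fold higher after normo-Migs, 4.09-fold higher after hypo-Migs and 3.61-fold higher after CD147KO-Migs than with PBS, log2 fold changes of 2.17, 2.03 and 1.85. It ranked 1758, 1970 and 2134 from the highest of the 19895 genes, so differences of this size were common between these libraries. An antisense gene, SEMA3F-AS1, overlaps SEMA3F by 1041 bases and had 25 to 50 reads per library. Whether the counting used strand is not given in the sources used here, so reads in the overlap cannot be told apart.

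SEMA3A, the collapsin-type class 3 ligand that acts through NRP1 and A plexins, had 0 reads with PBS, which allows up to 0.0885 CPM, the value of 3 reads. It had 151 reads after normo-Migs, 167 after hypo-Migs and 175 after CD147KO-Migs, or 4.37, 4.15 and 4.99 CPM. Against the floor of 3 reads it was at least 51.0-fold higher after normo-Migs, at least 47.9-fold after hypo-Migs and at least 57.5-fold after CD147KO-Migs. Per length, however, it was the lowest of the 10 genes in every library, between 0.440 and 0.528 FPKM with Migs.

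The other ligands differed less from PBS. SEMA3B, a class 3 ligand and the family neighbour of SEMA3F, was lower with Migs, with 11999 reads given PBS and 8697, 10758 and 9818 given normo-Migs, hypo-Migs and CD147KO-Migs. Its CPM was 354 with PBS and 252, 267 and 280 with Migs, 1.36-, 1.30- and 1.24-fold lower after TMM scaling. SEMA3C, in contrast, was higher with Migs, with 2885 reads given PBS and 3904, 5234 and 4201 given the 3 Migs in the same order, log2 fold changes of 0.45, 0.64 and 0.52. SEMA4B, a class 4 ligand, had 3369, 3764, 4401 and 3681 reads and log2 fold changes of 0.18, 0.17 and 0.11. SEMA4C, a class 4 ligand of PLXNB2, had 882, 1089, 1284 and 1115 reads and a log2 fold change of 0.32 with each of the Migs. For each of these ligands the PBS library lay outside the range of the 3 Mig libraries.

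The 4 plexins were lower in all 3 Mig libraries. PLXND1, the receptor that SEMA3E binds without a neuropilin, had 10024 reads with PBS and 5151, 5789 and 5254 with normo-Migs, hypo-Migs and CD147KO-Migs, 1.92-, 2.01- and 1.94-fold lower. PLXNA1, a partner of the neuropilins, had 6577, 3899, 4341 and 3818 reads and was 1.67-, 1.76- and 1.75-fold lower. PLXNB2, the most abundant plexin and a receptor for SEMA4C, had 17666, 10614, 12147 and 11018 reads and was 1.64-, 1.69- and 1.63-fold lower. PLXNB1, the SEMA4D receptor, had 1440, 1049, 1114 and 1136 reads and the smallest differences of the 4, log2 fold changes of -0.44, -0.59 and -0.36. In each plexin the PBS library was above every Mig library, and the Mig libraries lay close together.

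**Figure D1:**
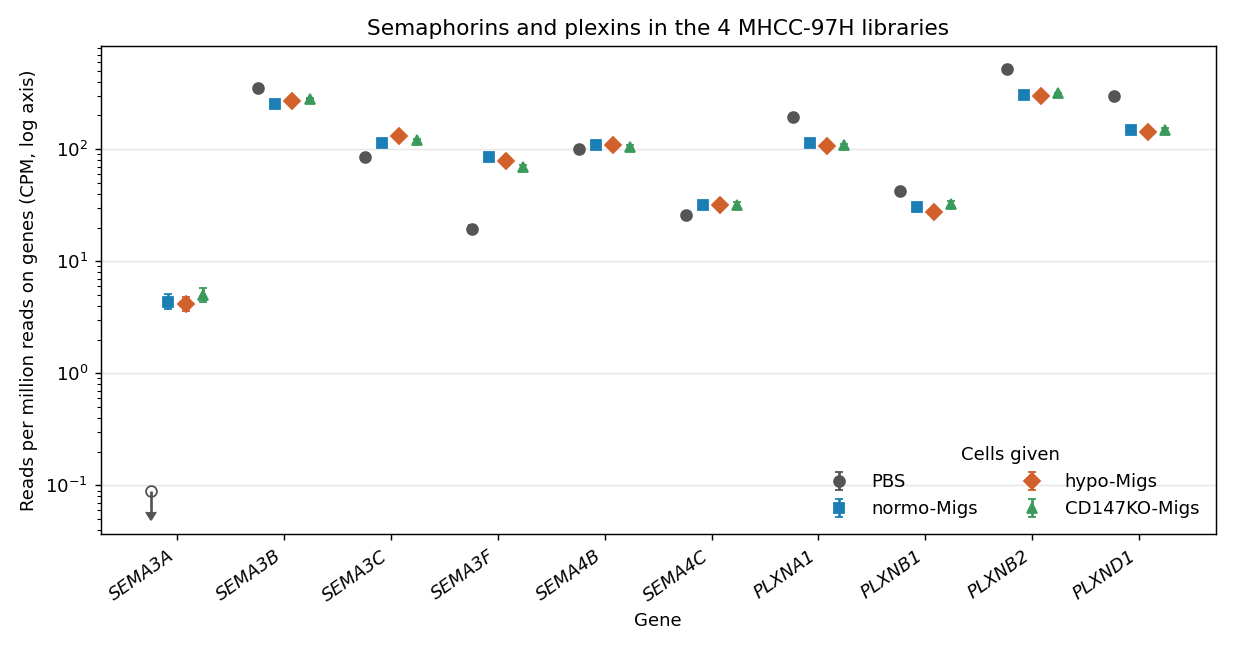
Reads on each gene per 1000000 reads on genes (CPM, log axis) of the 10 genes in the 4 libraries of MHCC-97H cells, 1 symbol per condition, with 95% Wilson intervals of counting error. SEMA3F sits at 19.6 with PBS and at 69.4 to 85.3 with Migs, the 4 plexins are highest with PBS, and the open circle with an arrow marks the 3-read floor of 0.0885 for SEMA3A, which had 0 reads with PBS.

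At a fold of at least 2 in either direction, with no test, 2 of the 10 genes (SEMA3A and SEMA3F) were higher with normo-Migs, against 18.1% of all tested genes, 2 with hypo-Migs, against 18.9%, and 2 with CD147KO-Migs, against 18.3%. Lower by that rule were 0 of the 10 with normo-Migs, against 12.0% of all tested genes, 1 (PLXND1) with hypo-Migs, against 11.6%, and 0 with CD147KO-Migs, against 12.0%. PLXND1 was just inside the fold with hypo-Migs at a log2 fold change of -1.01 and just outside it with normo-Migs at -0.94 and CD147KO-Migs at -0.95. Its call with hypo-Migs was lost under 4 of the alternatives listed in the closing section. The median log2 fold change of the 10 genes was -0.13 after normo-Migs, -0.10 after hypo-Migs and -0.10 after CD147KO-Migs against PBS, beside 0.03, 0.04 and 0.03 for all tested genes, and SEMA3A taken at its bound leaves it where it is. In all 10 genes the PBS library lay outside the range of the Mig libraries, as it did in 82.5% of all tested genes. The log2 range among the Mig libraries had a median of 0.11 over the 10 genes and 0.25 over all tested genes. The 10 genes had means of 123 to 12861 reads. All tested genes include some near the filter of 10 reads, where counting error is larger, and depth was not matched.

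**Figure D2:**
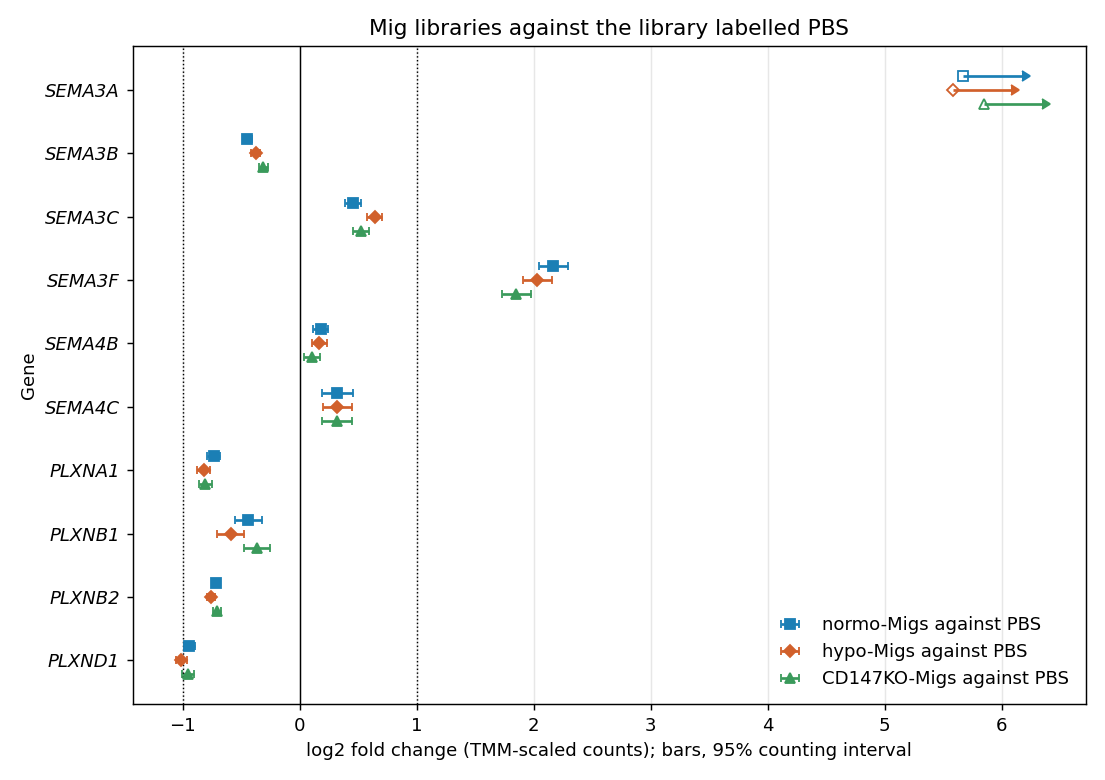
Log2 fold change of each of the 10 genes in the 3 Mig libraries against the library labelled PBS, with 95% exact counting intervals, dotted lines at a 2-fold difference. SEMA3F lies between 1.85 and 2.17, all 4 plexins and SEMA3B lie to the left of 0, and open symbols with arrows mark SEMA3A against the floor of 3 reads.

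Levels per length, as FPKM, put the ligands and receptors on one scale. In the PBS library the order was PLXNB2 (70.4), SEMA3B (60.2), PLXND1 (29.8), PLXNA1 (17.4), SEMA4B (13.9), SEMA3C (13.3), PLXNB1 (4.28), SEMA4C (4.14), SEMA3F (3.97) and SEMA3A (0). Counting intervals overlapped between SEMA4B and SEMA3C and among PLXNB1, SEMA4C and SEMA3F. With normo-Migs SEMA3B (43.9) and PLXNB2 (42.6) were first, with overlapping intervals, followed by SEMA3C (18.1), SEMA3F (17.8), SEMA4B (15.6), PLXND1 (15.4), PLXNA1 (10.4), SEMA4C (5.15), PLXNB1 (3.14) and SEMA3A (0.469). SEMA3F was thus the ninth with PBS and the fourth with normo-Migs, where its interval overlapped that of SEMA3C, and the intervals of SEMA4B and PLXND1 overlapped too. With hypo-Migs the order was the same, with SEMA3B at 46.1, PLXNB2 at 41.3, SEMA3C at 20.6, SEMA3F at 16.2, SEMA4B at 15.5, PLXND1 at 14.7, PLXNA1 at 9.80, SEMA4C at 5.15, PLXNB1 at 2.83 and SEMA3A at 0.440, and the interval of SEMA4B overlapped that of SEMA3F and, barely, that of PLXND1. With CD147KO-Migs SEMA3B was at 48.1, PLXNB2 at 42.9, SEMA3C at 19.0, PLXND1 at 15.3, SEMA4B at 14.9, SEMA3F at 14.3, PLXNA1 at 9.87, SEMA4C at 5.12, PLXNB1 at 3.30 and SEMA3A at 0.528, and the intervals of PLXND1 and SEMA4B and those of SEMA4B and SEMA3F overlapped.

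The sum over the 7 class 3 semaphorins differed little between libraries while the shares of its members differed. Their summed FPKM was 78.3 with PBS, 80.5 after normo-Migs, 83.4 after hypo-Migs and 82.1 after CD147KO-Migs. SEMA3F made up 5.08% of it with PBS and 22.1%, 19.4% and 17.4% with Migs, and SEMA3B 76.9% with PBS and 54.5%, 55.2% and 58.6%. SEMA3C went from 17.0% with PBS to 22.5%, 24.7% and 23.1%. SEMA3G, outside the set described here, was lower with Migs too. It had 142 reads with PBS and 18, 12 and 12 with normo-Migs, hypo-Migs and CD147KO-Migs. The ratio of SEMA3B to SEMA3F in FPKM was 15.1 with PBS, 2.47 after normo-Migs, 2.85 after hypo-Migs and 3.38 after CD147KO-Migs. The 6 class 4 semaphorins summed to 23.1, 25.7, 25.8 and 24.9 FPKM, of which SEMA4B made up 59.6% to 60.8% in every library. The 9 plexins summed to 133 FPKM with PBS and to 79.7, 77.4 and 80.4 with Migs, and PLXNB2 held 52.9% of that sum with PBS and 53.4% in each Mig library. All 20 semaphorins together summed to 107 FPKM with PBS and 110, 113 and 110 with Migs, so the plexin sum, and not the semaphorin sum, was lower with Migs.

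The Mig libraries were compared with each other to ask whether the oxygen level of the donor cells, or CD147 in the donor cells, went with a difference in these genes. The donors of normo-Migs and CD147KO-Migs differed in both oxygen level and CD147, so that pair cannot tell them apart. EdgeR's exact binomial test on the reads of 2 libraries, with Benjamini-Hochberg adjustment over 19895 genes, compares those libraries and not the conditions. None of the 10 genes passed an adjusted p of 0.05 together with a 2-fold difference, in a background of 4.90% of all tested genes called between hypo-Migs and normo-Migs, 5.04% between hypo-Migs and CD147KO-Migs and 4.91% between normo-Migs and CD147KO-Migs. At the adjusted p alone 4, 5 and 2 of the 10 passed, against 24.7%, 25.2% and 24.8% of all tested genes. With an assumed coefficient of variation of 0.1 between replicates, 0 of the 10 passed in any of the 3 pairs. The same count came from DESeq2 with its dispersion taken over the 4 libraries, which treats the conditions as replicates and so counts the distance from PBS as spread.

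Of the 6 ligands among the 10 genes, SEMA3F had the largest difference between Mig libraries. It was 1.25-fold higher with normo-Migs than with CD147KO-Migs (log2 fold change 0.32, adjusted p = 6.97e-14 in edgeR's exact binomial test) and 1.13-fold higher with hypo-Migs than with CD147KO-Migs (0.18, adjusted p = 8.47e-05). It was lower with hypo-Migs than with normo-Migs (log2 fold change -0.14, adjusted p = 0.00205), a difference of -0.067 once the trend with GC content and length was removed. The order was therefore normo-Migs, hypo-Migs and CD147KO-Migs, and the differences were small beside the distance of each from PBS. SEMA3C was highest with hypo-Migs, by 0.19 on the log2 scale over normo-Migs (adjusted p = 4.87e-08) and by 0.12 over CD147KO-Migs (adjusted p = 7.33e-04), by the same edgeR test. SEMA3B was higher with CD147KO-Migs than with normo-Migs (log2 fold change of normo-Migs against CD147KO-Migs -0.14, adjusted p = 8.44e-09) and higher with hypo-Migs than with normo-Migs (0.07, adjusted p = 0.00560). Between hypo-Migs and CD147KO-Migs it differed by -0.06 (adjusted p = 0.00911), which turned to 0.05 once the trend with GC content and length was removed.

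Among the plexins, PLXNB1 was lower with hypo-Migs than with CD147KO-Migs (log2 fold change -0.22, adjusted p = 0.00237, edgeR's exact binomial test), by -0.11 once the trend with GC content and length was removed. PLXNB2 differed by -0.06 in the same pair (adjusted p = 0.0180), and by 0.06 in the other direction without that trend. PLXNA1 was lower with hypo-Migs than with normo-Migs (-0.08, adjusted p = 0.0445), but by only -0.0079 without that trend. PLXND1 passed in no pair, and its 95% counting intervals ran from -0.12 to -0.01 for hypo-Migs against normo-Migs, from -0.11 to -0.0027 for hypo-Migs against CD147KO-Migs and from -0.04 to 0.07 for normo-Migs against CD147KO-Migs. Without that trend PLXND1 was at 0.0018 and 0.049 in the first pair and the second, so its direction was not fixed. SEMA4B and SEMA4C also passed in no pair. SEMA3A, with fewer than 200 reads per library, had the widest intervals, from -0.58 to 0.05 for hypo-Migs against CD147KO-Migs.

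Beyond the 10 genes, a list of 79 genes of the semaphorin pathway was taken, of which 74 were tested, 64 of them outside the 10. Of the 64, 14 were at least 2-fold higher and 9 at least 2-fold lower with normo-Migs than with PBS, 15 and 6 with hypo-Migs, and 14 and 7 with CD147KO-Migs. In all 3 Mig libraries 11 were higher and 6 lower by that rule, 17.2% and 9.38% of the 64, beside 14.2% and 7.10% of all tested genes. The median log2 fold change of the 64 was 0.15, 0.19 and 0.10, and no gene at 0 reads moves it when taken at its bound. These shares are near those of all genes, and no test was made.

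The 2 neuropilins, the co-receptors of the class 3 ligands, went different ways. NRP2, the co-receptor that SEMA3F binds, had 2116 reads with PBS and 2031, 2291 and 2195 with normo-Migs, hypo-Migs and CD147KO-Migs, log2 fold changes of -0.04, -0.10 and 0.03. NRP1, the co-receptor of SEMA3A, had 444 reads with PBS and 1909, 2385 and 1958 with Migs, log2 fold changes of 2.12, 2.20 and 2.11. In FPKM the ratio of NRP2 to NRP1 was 3.95 with PBS and 0.882, 0.796 and 0.930 with Migs, and that of SEMA3F to NRP2 was 0.902 with PBS and 4.18, 3.97 and 3.19 with Migs. The ligand and its co-receptor thus lay at like levels per length with PBS and the ligand lay above it with Migs. Other co-receptors with a difference of at least 2-fold in all 3 libraries were NRCAM, a neural adhesion molecule, with 8 reads given PBS and 863, 1125 and 855 given Migs, and MET, the hepatocyte growth factor receptor that associates with PLXNB1, with 13236 reads given PBS and 6196, 7498 and 5950 given Migs. L1CAM, which joins NRP1 in the SEMA3A receptor, was at log2 fold changes of -0.57, -0.59 and -0.56.

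Outside the 10 genes, other ligands and receptors also differed by at least 2-fold from PBS in all 3 Mig libraries. SEMA6D, a membrane-bound ligand of A plexins, had 2 reads with PBS and 205, 181 and 156 with normo-Migs, hypo-Migs and CD147KO-Migs, and SEMA6B, of the same class, 18, 102, 101 and 81. SEMA7A, the lipid-anchored ligand of PLXNC1 and integrins, had 605 reads with PBS and 194, 206 and 153 with Migs. PLXNB3, the receptor for SEMA5A, had 853 reads with PBS and 173, 197 and 256 with Migs, so that all 3 B plexins were lower with Migs. SEMA4D, the ligand of PLXNB1, was at log2 fold changes of -0.59, -0.78 and -0.85. PLXNA3 was instead at 0.18, 0.42 and 0.43.

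Of the proteases, FURIN, which cuts class 3 semaphorins, had 6576 reads with PBS and 18332, 21950 and 20534 with normo-Migs, hypo-Migs and CD147KO-Migs, with a median log2 fold change of 1.52. PCSK6, another proprotein convertase, had 2530 reads with PBS and 732, 903 and 744 with Migs, log2 fold changes of -1.77, -1.70 and -1.78. The 2 convertases were thus on opposite sides of PBS. Among intracellular partners, FYN, a Src-family kinase downstream of SEMA3A, had 469 reads with PBS and 2071, 2643 and 2254 with Migs. FES, a kinase that acts on collapsin response mediator proteins, had 6 reads with PBS and 60, 92 and 69 with Migs. DPYSL4, a collapsin response mediator protein, had 13 reads with PBS and 1216, 1306 and 1222 with Migs. CFL1, an actin-severing protein at the end of the pathway, was at log2 fold changes of 0.08, -0.03 and -0.01.

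Between the Mig libraries 3 of the 74 genes were called by an adjusted p of 0.05 together with a 2-fold difference for hypo-Migs against normo-Migs, 3 for hypo-Migs against CD147KO-Migs and 2 for normo-Migs against CD147KO-Migs. These are 4.05%, 4.05% and 2.70% of the list, beside 4.90%, 5.04% and 4.91% of all tested genes. PLXNC1, the receptor of SEMA7A, was the only called gene with a mean of at least 50 reads, with 26 reads given normo-Migs, 70 given hypo-Migs and 64 given CD147KO-Migs, and 68 given PBS. Its log2 fold change was 1.14 for hypo-Migs against normo-Migs (adjusted p = 0.00199, edgeR's exact binomial test) and -1.20 for normo-Migs against CD147KO-Migs (adjusted p = 0.00127). The other calls were SEMA3D, PCSK5 and PLXNA4, named after their values were seen, with at most 37 reads in any library.

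Within 250000 bases of SEMA3F and SEMA3B, 18 other protein-coding genes were tested, and 2 were at least 2-fold higher and 0 lower in all 3 Mig libraries, 11.1% of them higher beside 14.2% of all tested genes and none lower beside 7.10%. Of these tested genes, the nearest to SEMA3F on each side were RBM5, an RNA-binding protein, and SLC38A3, an amino acid transporter. Genes that were not tested may lie between. RBM5 had a median log2 fold change of 0.19. SLC38A3 had 18 reads given PBS, 221, 273 and 172 given Migs, and a median of 3.50. Nearest to SEMA3B among the tested genes were GNAI2, a G protein subunit, at 0.11, and LSMEM2 at -0.82 with 12 to 23 reads per library. CACNA2D2, a calcium channel subunit, had 20 reads with PBS and 254, 357 and 276 with Migs. The median over the 18 genes was 0.17.

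The protein-coding genes nearest to SEMA3F in profile, of 12186 compared, were STEAP1 at a Euclidean distance of 0.073, ZNF185, C12orf75, NAV1 and GPAT3. The distance was taken over the log2 CPM of the 4 libraries, PBS included, after TMM scaling, with each gene centred on its own mean. SEMA3F was chosen by its difference from PBS, which weighs most in this distance, so genes found this way share that difference by construction. Of all tested genes, 2834 were at least 2-fold higher in all 3 Mig libraries. STEAP1 had 130 reads with PBS and 586, 663 and 502 with normo-Migs, hypo-Migs and CD147KO-Migs. NAV1, a neuron navigator protein, had 482 reads with PBS and 2205, 2431 and 1946 with Migs. None of these genes was a member of the pathway list.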

How the data were processed

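Raw counts of reads per gene were deposited by the authors without normalization, for 4 libraries and 58735 genes. The authors also deposited FPKM, which equalled counts over gene length times a library constant. The submitters' processing notes name CASAVA 1.8, fastp, HISAT2 2.0.5, featureCounts 1.5.0-p3 and hg38. The supplementary methods describe poly-T beads and random hexamers, the labels a SMARTer kit, and the handling of strand is not given in the sources used here. Levels were compared between genes only as FPKM, which corrects for gene length and library size alone. Random hexamers and library kit can also shift levels between genes, and such shifts remain in those comparisons. In the counts 15 symbols had become dates, so genes were matched by identifier. Loci are those of GENCODE 29.

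The members and gene lists were chosen with earlier results of these data known. The 19895 genes that reached 10 reads in 1 library or more were scaled by TMM (factors 0.986 to 1.02) in edgeR 4.0.16 (R 4.3.3), with a prior count of 2. Against PBS, folds were described with no test. For pairs of Mig libraries, the exact binomial test of edgeR (two-sided, Benjamini-Hochberg adjustment) was used, and a gene was called at an adjusted p of 0.05 or less and a log2 fold change of at least 1 in size, the paper's criteria. With 1 library per condition the spread between replicates could not be estimated. Ratios have exact and CPM values Wilson 95% intervals. A count of 0 allows 3 reads. The test was also run on simulated counts that held counting error only. That run says nothing about spread between cultures. Alternatives used DESeq2 1.42.0, and mgcv 1.9.3 for the trend with GC content and length, which was chosen after seeing the data. Tables and figures used Python 3.11.15, pandas 2.3.3, scipy 1.17.1 and matplotlib 3.10.9.

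Named were the 10 members, NRP1 and NRP2. Up to 8 pathway genes higher and up to 8 lower by at least 2-fold in all 3 Mig libraries were named (a mean of at least 50 reads). So were pathway genes called between Mig libraries with that mean, the nearest tested neighbours of SEMA3F and SEMA3B, and the 5 genes nearest to SEMA3F in profile. SEMA3G, L1CAM, SEMA4D, PLXNA3, CFL1 and CACNA2D2 were added after their values were seen. Each condition had 1 library and all 4 the same batch label, so neither pairing nor batch could be fitted. Protein sequences were not used here.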

Additional observations from a re-analysis of the deposited data

How the results depend on the processing

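Each of 102 results was recomputed under up to 11 alternatives, which gave 858 values; 727 kept their call or stayed within the counting interval (a count, within 1.5 times). No paired analysis was possible because each condition had 1 library, and for the same reason none was left out.

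Against PBS, members at least 2-fold higher went from 2 to 1 in each comparison when at least 10 reads were required in every library, which removes SEMA3A, and under log2(FPKM + 1). With hypo-Migs the 1 member at least 2-fold lower, PLXND1, became 0 with genes of at least 1 read, with at least 10 reads in every library, under log2(FPKM + 1) and with the GC and length trend removed. In the pathway list the number at least 2-fold higher (16, 17 and 16 with normo-, hypo- and CD147KO-Migs) fell to 9, 10 and 9 with at least 10 reads in every library and to 6, 6 and 6 under log2(FPKM + 1), where the number lower (9, 7 and 7) fell to 4, 4 and 4; a pseudocount of 1 FPKM shrinks folds of low genes.

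Between Mig libraries, the members passing the adjusted p alone (4, 5 and 2 for hypo-Migs against normo-Migs, hypo-Migs against CD147KO-Migs and normo-Migs against CD147KO-Migs) became 0, 0 and 0 with an assumed coefficient of variation of 0.1, with 0.4 and with DESeq2. The pathway genes passing it (18, 22 and 20) became 1, 2 and 1 with 0.1, and 0 in each pair with 0.4 and DESeq2. Of the pathway genes called with a 2-fold difference, the 2 higher and 1 lower for hypo-Migs against normo-Migs became 1 and 0 with at least 10 reads in every library, and 0 and 0 with 0.4, log2(FPKM + 1) and DESeq2; the higher ones were 0 with 0.1. For hypo-Migs against CD147KO-Migs, the 1 higher and 2 lower became 0 and 0 under those 4 settings, the lower 1 with 0.1 and the higher 2 with the GC and length trend removed. For normo-Migs against CD147KO-Migs the 1 higher became 0 under the same 4, and the 1 lower 0 with 0.1, 0.4, log2(FPKM + 1) and DESeq2, but 2 with no scaling factor and with a prior count of 0.25. Except where stated, the cause was not tested.

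Of the 30 log2 differences of members between Mig libraries, 10 changed sign under at least 1 alternative, and of the 30 against PBS 0 did. With no scaling factor SEMA4B for hypo-Migs against normo-Migs was 0.0044, and SEMA4C and PLXND1 for normo-Migs against CD147KO-Migs were -0.014 and -0.0085. With the GC and length trend removed, SEMA4B, PLXNB2 and PLXND1 for hypo-Migs against normo-Migs were 0.060, 0.034 and 0.0018, SEMA3B, PLXNA1, PLXNB2 and PLXND1 for hypo-Migs against CD147KO-Migs were 0.050, 0.099, 0.056 and 0.049, and PLXNB2 for normo-Migs against CD147KO-Migs was 0.0011. That alternative also moved 5 differences that passed the adjusted p by over 1.5 times with the same sign: for hypo-Migs against normo-Migs SEMA3B to 0.15, SEMA3F to -0.067 and PLXNA1 to -0.0079, and for hypo-Migs against CD147KO-Migs SEMA3F to 0.28 and PLXNB1 to -0.11. SEMA3A, with 0 to 175 reads, had the widest counting intervals of the members.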
